A study of Mus musculus with 6 samples.

Results

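The 6 loci described here are copies of protein-coding genes whose read counts differed between libraries of adult mouse brain: *Gm11868*, *Gm13456*, *Rps3a3*, *Gm1821*, *Gm9855* and the row ENSMUSG00000048149, which the count table leaves unnamed. They were selected on their counts in these same libraries, out of 37310 rows in the table, so their levels are given as a description and without a test. Whole brain was taken from 12-week-old male C57BL/6 mice of 2 genotypes, with 3 biological replicates (separate mice) and 1 library per mouse. The *Adar1* E861A/E861A *Ifih1*-/- mice carried a point mutation on both *Adar1* alleles that abolishes RNA editing by ADAR1, and the *Adar1*+/+ *Ifih1*-/- mice were wild type at *Adar1*. Both genotypes lacked *Ifih1*, which encodes the RNA sensor MDA5, and no brain with MDA5 was analysed here. All alleles were on a backcrossed C57BL/6 background. The genotypes are called E861A and wild type below. The purpose of the series was to ask how loss of ADAR1 editing changes the brain transcriptome when MDA5 is absent.

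A processed pseudogene, or retrocopy, arises when a spliced mRNA is reverse transcribed and inserted into the genome at a new place. It therefore resembles the mature transcript of its parent gene, without the introns. Highly expressed genes, such as those for ribosomal proteins, ubiquitin and translation factors, are known for leaving many such copies in mammalian genomes. A short read from an mRNA and one from its copy can differ at few bases or none, and a read is counted for a gene only where the aligner gives it a single best place.

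The copies lie on different chromosomes of mm9 (NCBIM37), the build named for the files, and the coordinates given are those of GENCODE vM1 on that build. That annotation calls 5 of the loci pseudogenes. It lists *Rps3a3* as protein-coding under the name Gm9000, whereas RefSeq calls it a pseudogene. RefSeq names *Gm1821* as Ubb-ps and *Gm9855* as Tdg-ps2, and both annotations name ENSMUSG00000048149 as Gm12663. Each locus was compared with all annotated protein-coding transcripts, and the gene outside the 6 with the best match is called the parent.

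*Gm11868* (ENSMUSG00000050550; chromosome 4, 18771349 to 18772928) matched *Cyb5r4*, which encodes a cytochrome b5 reductase, with 97.86% identity (27 mismatches and 7 gap bases). *Gm13456* (ENSMUSG00000082536; chromosome 2, 40411272 to 40412636) matched *Eef1a1*, the elongation factor that brings aminoacyl-tRNA to the ribosome, with 96.76% identity (19 mismatches and 26 gap bases). *Rps3a3* (ENSMUSG00000059751; chromosome 13, 109460773 to 109461634) matched *Rps3a1*, a protein of the small ribosomal subunit that the annotation names Rps3a, with 98.96% identity (9 mismatches). *Gm1821* (ENSMUSG00000044285; chromosome 14, 46703801 to 46704490) matched *Ubb*, a polyubiquitin precursor, with 98.55% identity (10 mismatches). *Gm9855* (ENSMUSG00000085666; chromosome 10, 41773919 to 41775160) matched *Tdg*, the thymine DNA glycosylase of base excision repair, with 99.28% identity (9 mismatches). ENSMUSG00000048149 (chromosome 11, 16534866 to 16536110) matched *Ublcp1*, a phosphatase of the nuclear proteasome, with 98.72% identity (10 mismatches and 6 gap bases). Each alignment covered at least 99.9% of the copy, and 5 of the 6 copies spanned 6 to 16 exons of the parent transcript. *Gm1821* matched within 1 coding exon of *Ubb*.

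The sequences of 4 pairs are printed because they show how few bases separate a copy from its parent over the length of 1 sequencing read. Each is 75 bases long, lies in 1 coding exon of the parent, and is the first such stretch with the most differences from it. Capitals mark the positions at which copy and parent differ. The *Gm11868* stretch lies at chr4:18772623-18772697 (minus strand) and its parent stretch at chr9:86924341-86924415 (plus strand, exon 3 of 16), with 3 differences.
Gm11868 copy: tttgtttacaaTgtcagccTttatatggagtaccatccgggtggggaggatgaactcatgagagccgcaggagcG
Cyb5r4 parent: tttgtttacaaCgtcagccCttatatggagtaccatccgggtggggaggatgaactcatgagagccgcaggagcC

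The *Rps3a3* stretch lies at chr13:109460982-109461056 (plus strand) and its parent stretch at chr3:85945255-85945329 (minus strand, exon 3 of 6), with 2 differences.
Rps3a3 copy: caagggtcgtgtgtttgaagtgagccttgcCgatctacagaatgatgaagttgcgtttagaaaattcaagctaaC
Rps3a1 parent: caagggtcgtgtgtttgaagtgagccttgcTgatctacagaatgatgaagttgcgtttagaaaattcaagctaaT

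The *Gm1821* stretch lies at chr14:46704209-46704283 (plus strand) and its parent stretch at chr11:62366284-62366358 (plus strand, exon 2 of 2), with 5 differences.
Gm1821 copy: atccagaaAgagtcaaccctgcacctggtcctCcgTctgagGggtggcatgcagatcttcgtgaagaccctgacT
Ubb parent: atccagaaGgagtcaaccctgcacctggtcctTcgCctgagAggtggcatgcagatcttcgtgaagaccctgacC

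The *Gm9855* stretch lies at chr10:41773987-41774061 (minus strand) and its parent stretch at chr10:82111323-82111397 (plus strand, exon 10 of 10), with 4 differences.
Gm9855 copy: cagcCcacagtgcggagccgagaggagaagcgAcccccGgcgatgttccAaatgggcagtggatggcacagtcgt
Tdg parent: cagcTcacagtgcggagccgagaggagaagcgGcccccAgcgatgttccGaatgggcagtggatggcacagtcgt

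Over whole alignments, stretches of read length with at most 1 difference from the parent were in the majority for each of the 6 copies. Windows of 75 bases without a difference made up 25.5% of the *Gm11868* alignment, 31.5% for *Gm13456*, 32.3% for *Rps3a3* and 39.1% for *Gm1821*. They made up 51.2% for ENSMUSG00000048149 and 69.4% for *Gm9855*. The longest run of identical bases was 756 in *Gm9855* and 150 in *Gm11868*. When the windows were instead searched for in the whole genome and in the coding transcripts of all other genes, the share found exactly outside the copy's own locus ran from 25.6% for *Gm11868* to 86.4% for *Gm1821*. The 86.4% for *Gm1821* compares with 39.1% identical to *Ubb* at the aligned position. These shares describe the reference sequence alone, because no reads were examined.

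**Figure D1:**
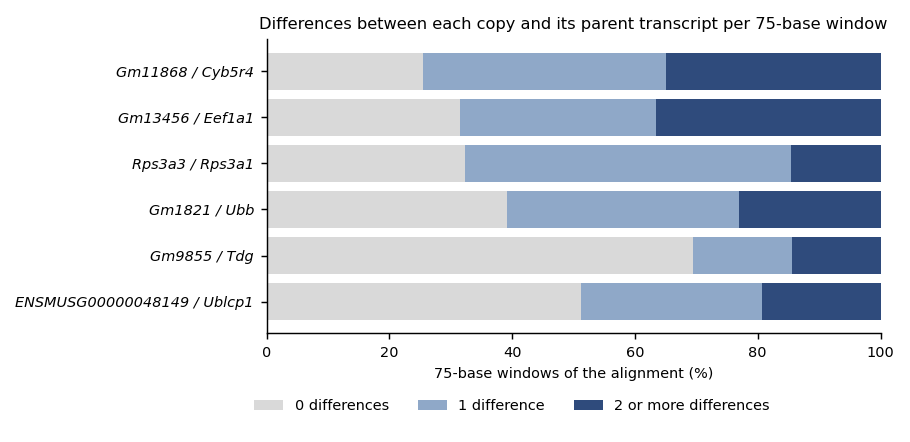
Share of 75-base windows along each alignment of copy and parent transcript (x axis, %), split by the number of differing positions in the window. *Gm9855* has the largest share without a difference (69.4%) and *Gm11868* the smallest (25.5%).

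Library totals ranged from 26853488 to 38076753 counts, and 3 counts correspond to 0.0788 to 0.112 CPM, the unit that scales each count by its library's total. Summed markers of neurons, astrocytes and oligodendrocytes were at 1200 CPM or more in each library. Pituitary markers (*Gh*, *Prl*, *Pomc*) summed to 434 CPM in E861A replicate 1 and to 0.708 to 2.51 CPM elsewhere, and none of the 6 loci was at its highest in that library. Choroid plexus markers (*Ttr*, *Kl*, *Folr1*) summed to 203, 299 and 311 CPM in E861A and 392, 368 and 387 CPM in wild type, without overlap and, like the loci, lower in E861A. Microglia markers (*Cx3cr1*, *P2ry12*, *Csf1r*) also did not overlap, by a narrow margin, with at most 103 CPM in E861A and 104 to 106 CPM in wild type. Neuron markers did not overlap either, at 3660 to 3770 CPM in E861A and 3780 to 3850 CPM in wild type. The sums for astrocytes, oligodendrocytes and endothelium overlapped between the genotypes. The part of these cell types in the results was not tested. Testis markers (*Prm1*, *Prm2*, *Tnp1*, *Odf1*) summed to 1.66 CPM in wild-type replicate 1 and to 0.0525 to 0.448 CPM elsewhere. Batches and litters are not given in the labels. In whole tissue, a lower count can come from fewer cells of a type or from less RNA per cell, and these cannot be told apart.

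All 6 loci were low in each of the 3 E861A libraries and high in 1, 2 or 3 of the wild-type libraries. The libraries in which a locus was high differed between loci, in 4 patterns. CPM values are not corrected for gene length.

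**Figure D2:**
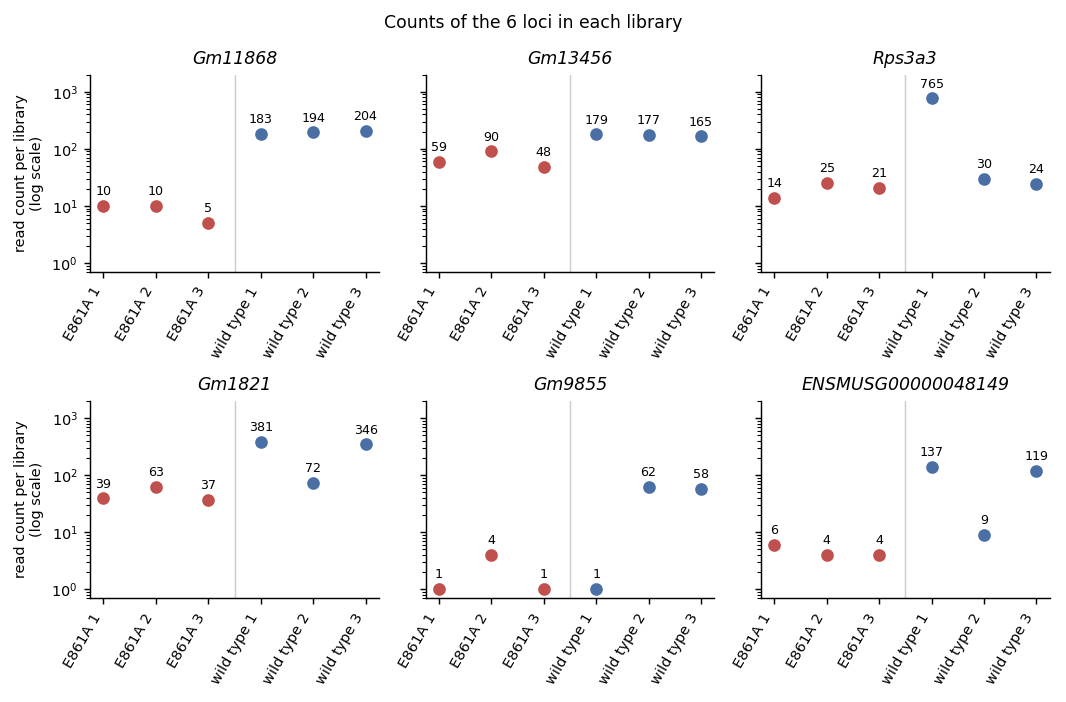
Read counts (y axis, log scale) of the 6 loci in the 3 E861A (red) and 3 wild-type (blue) libraries, with each point labelled by its count. *Gm11868* and *Gm13456* are high in all wild-type libraries, and the other loci are high in 1 or 2 of them. For *Gm1821* and ENSMUSG00000048149, the low wild-type library still lies just above the E861A range.

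*Gm11868* and *Gm13456* were high in all 3 wild-type libraries. *Gm11868* had 10, 10 and 5 counts in E861A replicates 1 to 3 (0.346, 0.276 and 0.186 CPM) and 183, 194 and 204 counts in wild-type replicates 1 to 3 (5.06, 5.09 and 5.71 CPM). The genotypes did not overlap, and the highest wild-type library was 1.13 times the lowest. The means were 0.269 ± 0.0803 CPM (SD, n = 3) and 5.29 ± 0.368 CPM (SD, n = 3), which is 19.6-fold lower in E861A, or a log2 ratio of -4.30. *Gm13456* had 59, 90 and 48 counts in E861A and 179, 177 and 165 counts in wild type, or 2.04, 2.48 and 1.79 CPM against 4.95, 4.65 and 4.62 CPM. It was not off in any library. Its means of 2.10 ± 0.350 and 4.74 ± 0.181 CPM (SD, n = 3) are 2.25-fold apart, the smallest difference of the 6 loci.

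*Gm1821* and ENSMUSG00000048149 were high in wild-type replicates 1 and 3 and low in wild-type replicate 2. *Gm1821* had 39, 63 and 37 counts in E861A libraries (1.35, 1.74 and 1.38 CPM) and 381, 72 and 346 in wild type (10.5, 1.89 and 9.69 CPM). Wild-type replicate 2 lay just above the E861A range, 5.57-fold below the highest wild-type library. ENSMUSG00000048149 had 6, 4 and 4 counts in E861A libraries (0.208, 0.110 and 0.149 CPM) and 137, 9 and 119 in wild type (3.79, 0.236 and 3.33 CPM). Here too wild-type replicate 2 sat beside the E861A libraries, and the range within wild type was 16.0-fold. The mean differences hide this split: they were 4.95-fold for *Gm1821* (1.49 ± 0.215 against 7.37 ± 4.76 CPM; SD, n = 3) and 15.8-fold for ENSMUSG00000048149 (0.156 ± 0.0491 against 2.45 ± 1.93 CPM; SD, n = 3).

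*Gm9855* was high in wild-type replicates 2 and 3. It had 1, 4 and 1 counts in E861A libraries (0.0346, 0.110 and 0.0372 CPM) and 1, 62 and 58 in wild type (0.0276, 1.63 and 1.62 CPM). Wild-type replicate 1 was the lowest of all 6 libraries, so the genotypes overlapped. From the summed counts, 6 in E861A and 121 in wild type, the level was 16.9-fold lower in E861A, a value that rests on wild-type replicates 2 and 3.

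*Rps3a3* was high in wild-type replicate 1 alone, where it had 765 counts (21.1 CPM), the highest value of any of the 6 loci. It had 30 and 24 counts in wild-type replicates 2 and 3 (0.788 and 0.672 CPM) and 14, 25 and 21 in E861A libraries (0.485, 0.689 and 0.782 CPM). The 5 low libraries overlapped between the genotypes, and the range within wild type was 31.5-fold. The log2 ratio of E861A to wild type was -3.53 with all libraries and -0.16 without wild-type replicate 1. That library also had the most testis marker counts (1.66 CPM), whose part in the result was not tested.

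For 4 of the 6 loci the genotypes did not overlap, all with lower counts in E861A. Of the 18140 rows with at least 20 counts in their highest library, 6.1% did not overlap in that direction. Nothing is read from this count, since the loci were chosen on these values. Within E861A the highest library was 1.29 to 1.89 times the lowest for 5 loci and 3.18 times for *Gm9855*, where it rests on 1 and 4 counts.

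The counts of the parent genes were not used in the selection, and their levels were tested. A read from a stretch that copy and parent share almost in full may be assigned to either, so the parent's count may not be independent of the copy's, and how far the tests depend on this was not tested. Of the 6 parents, 1 was called at an adjusted p-value under 0.05 by edgeR's quasi-likelihood test, against 0.506% of all 13649 genes tested (69 genes, and 158 with the replicate number as a block). *Cyb5r4* (ENSMUSG00000032872; chromosome 9, 86916849 to 86972609), the parent of *Gm11868*, rose in E861A brain. It was at 46.8, 42.4 and 43.6 CPM in E861A libraries, and its 1030, 1036 and 998 counts in wild type were 27.9 ± 0.635 CPM (SD, n = 3), without overlap and in the opposite direction to its copy. The log2 fold change was 0.67 ± 0.05 (SE; adjusted p = 1.14e-05). When the counts of *Gm11868* were added to those of *Cyb5r4*, the genotypes were nearer but still apart, with 47.2, 42.7 and 43.8 CPM against 33.5, 32.3 and 33.7 CPM. No test of this sum is given, since it holds the counts on which *Gm11868* was chosen. The copy took 17.8 to 20.4 counts for every 100 at *Cyb5r4* in wild type and 0.427 to 0.740 in E861A.

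*Eef1a1* (ENSMUSG00000037742; chromosome 9, 78326256 to 78336958), the parent of *Gm13456*, had 801, 801 and 762 CPM in E861A libraries and 750, 785 and 762 CPM in wild type. The genotypes overlapped, and the log2 fold change of 0.04 ± 0.05 (SE) was not called (adjusted p = 0.829). *Gm13456* took 0.235 to 0.310 counts per 100 at *Eef1a1* in E861A and 0.592 to 0.660 in wild type, so the copy held under 1 count per 100 of the parent in each library. *Cyb5r4* and *Eef1a1*, whose copies were high in all 3 wild-type libraries, both lie on chromosome 9.

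For the copies that varied among wild-type libraries, the libraries high for the copy were those lowest for the parent in 3 of 4 cases. *Rps3a1* (ENSMUSG00000028081; chromosome 3, 85941862 to 85946624) had 74.1 CPM in wild-type replicate 1, where *Rps3a3* was high. It had 115 and 116 CPM in the other wild-type libraries and 124, 119 and 122 CPM in E861A, so wild-type replicate 1 was the single low library. *Tdg* (ENSMUSG00000034674; chromosome 10, 82092573 to 82113544) had 13.0 and 15.1 CPM in wild-type replicates 2 and 3, where *Gm9855* was high, against 20.3 CPM in wild-type replicate 1. Its E861A libraries, at 19.8, 19.2 and 19.2 CPM, were level with wild-type replicate 1. *Ublcp1* (ENSMUSG00000041231; chromosome 11, 44268073 to 44284000) had 27.0 and 27.1 CPM in wild-type replicates 1 and 3, where ENSMUSG00000048149 was high, against 36.2 CPM in wild-type replicate 2. The E861A libraries had 923, 1275 and 991 counts (mean 34.7 CPM), and each lay above both low wild-type libraries. *Ubb* (ENSMUSG00000019505; chromosome 11, 62364673 to 62366715) had 248 and 236 CPM in wild-type replicates 1 and 3, where *Gm1821* was high, and 282 CPM in wild-type replicate 2. The E861A libraries had 6452, 9270 and 6245 counts, or 237 ± 16.5 CPM (SD, n = 3), and 2 of them lay below wild-type replicates 1 and 3, so *Ubb* did not separate the libraries in this way.

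The sum of copy and parent was still lowest in the same libraries for these 3 pairs. *Rps3a1* and *Rps3a3* together gave 95.3 CPM in wild-type replicate 1 and 115 to 124 CPM in the other libraries. *Tdg* and *Gm9855* together gave 14.6 and 16.7 CPM in wild-type replicates 2 and 3 and 19.3 to 20.4 CPM elsewhere. *Ublcp1* and ENSMUSG00000048149 together gave 30.7 and 30.4 CPM in wild-type replicates 1 and 3 and 32.2 to 37.1 CPM elsewhere. No test compares these libraries, because they would be grouped by a measured value.

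Between genotypes, none of these 4 parents was called by edgeR or DESeq2. Of the 5 uncalled parents, 1 had an unadjusted p-value under 0.05. The log2 fold changes were 0.26 ± 0.12 for *Rps3a1* (adjusted p = 0.565), 0.27 ± 0.12 for *Tdg* (adjusted p = 0.524), 0.20 ± 0.10 for *Ublcp1* (adjusted p = 0.582) and -0.11 ± 0.07 for *Ubb* (adjusted p = 0.702), each with its SE. These values depended on single wild-type libraries. *Tdg* was at 0.46 without wild-type replicate 1 (adjusted p = 0.0138), at 0.14 without replicate 2 (adjusted p = 0.786) and at 0.23 without replicate 3 (adjusted p = 0.737). *Ublcp1* was at 0.12 without wild-type replicate 1 (adjusted p = 0.865), at 0.37 without replicate 2 (adjusted p = 0.0202) and at 0.13 without replicate 3 (adjusted p = 0.823). *Rps3a1* was at 0.07 without wild-type replicate 1 (adjusted p = 0.835), at 0.36 without replicate 2 (adjusted p = 0.279) and at 0.36 without replicate 3 (adjusted p = 0.561).

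**Figure D3:**
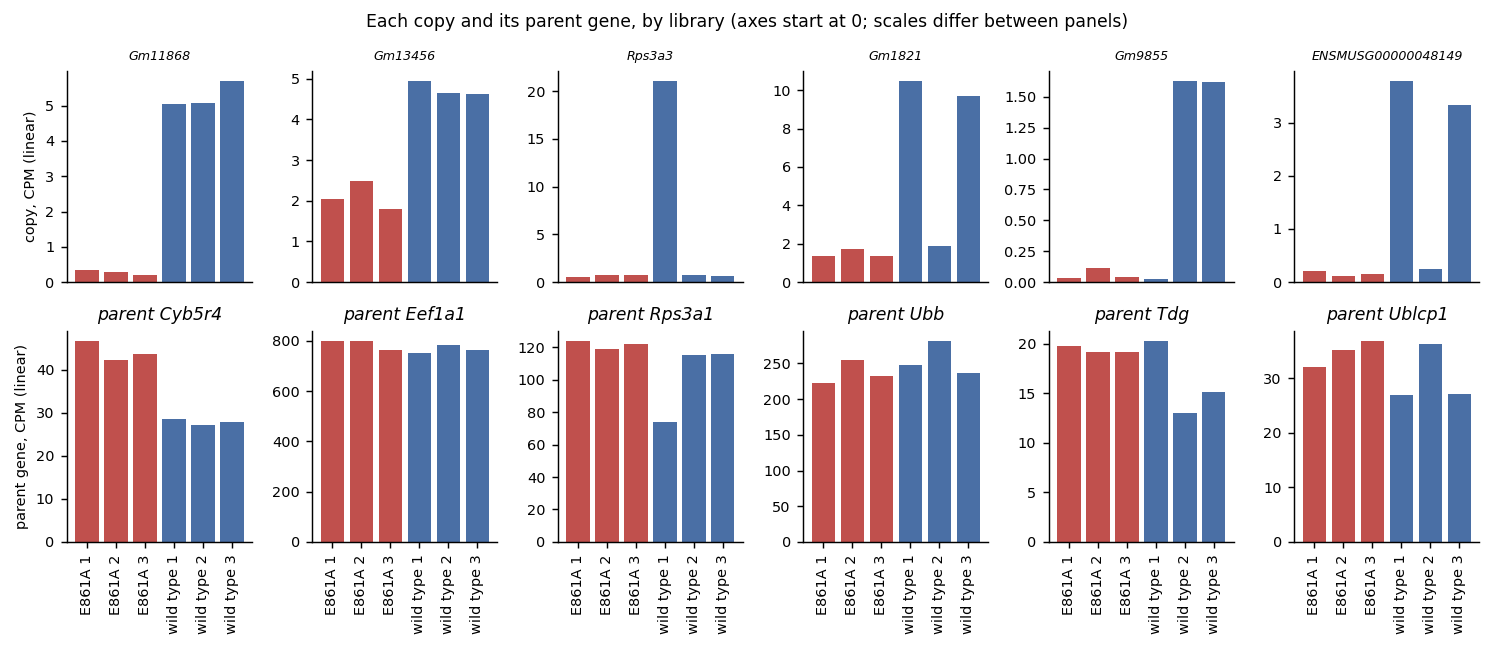
CPM of each copy (upper row) and of its parent gene (lower row) in the 3 E861A (red) and 3 wild-type (blue) libraries, as bars on linear axes that start at 0 and differ in scale. For *Cyb5r4*, *Rps3a1*, *Tdg* and *Ublcp1*, each library in which the copy is high lies below each of the other libraries for the parent, whereas for *Eef1a1* and *Ubb* the 2 sets of libraries overlap.

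Other annotated copies of the same parents were counted too. Of 12 such rows, defined by at least 200 aligned bases at 90% identity or more, *Rps3a2* (ENSMUSG00000062611, Gm10119 in the annotation; chromosome 14, 88522821 to 88523615) was, like *Rps3a3*, highest in wild-type replicate 1. It had 89 counts in wild-type replicate 1, against 28 and 31 in the other wild-type libraries and 20, 29 and 26 in E861A. *Gm13408*, another *Rps3a1* copy, had 31, 19 and 22 counts in E861A libraries and 31, 19 and 20 in wild type, with no such step. Among the *Eef1a1* copies, *Gm6767* had 5, 8 and 9 counts in E861A libraries and 15, 16 and 12 in wild type, whereas *Gm5822* (31, 43 and 38 against 37, 41 and 40) and *Gm6548* (74, 65 and 57 against 78, 64 and 58) were level. No reads were counted for Tdg-ps in any library (0 counts). Tdg-ps matched *Tdg* with 98.77% identity, and reads without a single best place are not counted, so this sets no limit on its level.

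No gene around the copies passed the test. Within 500 kb on either side of the 6 loci, 17 other genes were tested and 0 were called by edgeR at the same threshold (2 had an unadjusted p-value under 0.05, and DESeq2 called 0). *Gm11868* had 0 tested genes in its window, so its surroundings were not assessed. *Rps3a3* lies in an intron of *Pde4d*, a cAMP phosphodiesterase gene on the same strand, whose 2979, 3671 and 2715 counts in E861A and 3863, 3480 and 3726 in wild type gave a log2 fold change of 0.02 ± 0.05 (SE; adjusted p = 0.954). *Gm11868* overlaps *Gm11867* on the opposite strand outside its exons, and that row had 0 to 2 counts per library. Around the 6 parents, a window chosen after the data were seen, 48 genes were tested and 1 was called. This was *Cep162* (ENSMUSG00000056919, 4922501C03Rik in the annotation; chromosome 9, 87084408 to 87150371), a centrosomal gene near *Cyb5r4*, with 32.4 ± 1.62 CPM in E861A and 26.1 ± 1.41 CPM in wild type (SD, n = 3), a log2 fold change of 0.31 ± 0.06 (SE; adjusted p = 0.0249).

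Steps of this size were rare in the series. Of the 15208 rows with at least 50 counts in their highest library, 54 had a highest CPM at least 4 times the lowest, or 0.355%. A lowest value under 3 counts was set to 3. Of the 6 loci, 5 were among these rows, as follows from their selection, and *Gm13456* was not, with a range of 2.77-fold. By annotated type, and leaving out the loci, which were chosen for such a range, 1 of 289 pseudogene rows (0.346%) varied this much. Among protein-coding rows, 42 of 13753 (0.305%) did, a count that still includes the locus *Rps3a3*. *Rps3a3* ranked 4, ENSMUSG00000048149 ranked 7, *Gm11868* ranked 11, *Gm9855* ranked 15 and *Gm1821* ranked 26 of all 15208 rows by range, and *Gm13456* ranked 103.

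**Figure D4:**
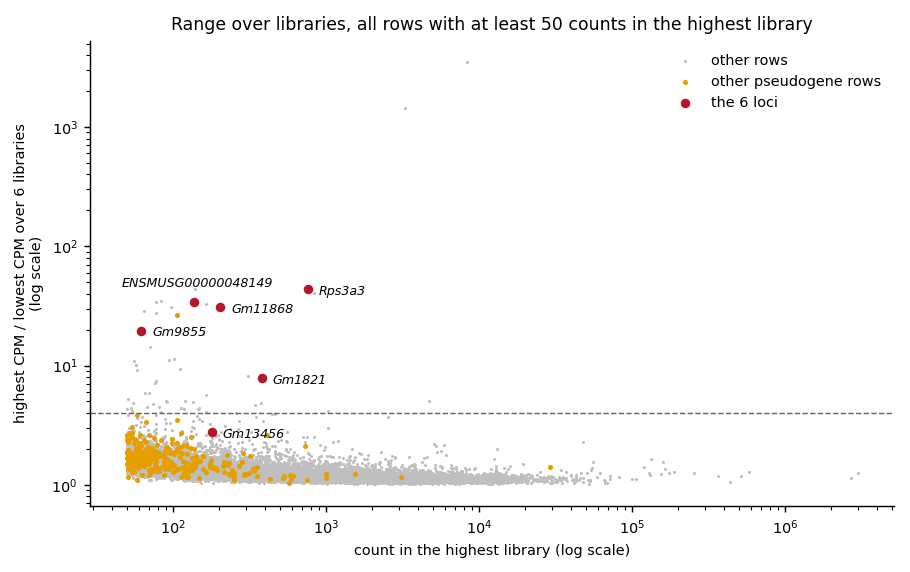
Ratio of the highest to the lowest CPM over the 6 libraries (y axis, log scale) against the count in the highest library (x axis, log scale) for each row with at least 50 counts there. The dashed line marks a 4-fold range, and 5 of the 6 loci (red) lie above it.

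The rows most like each locus were found by Pearson's r of log2(CPM + 1) over the 6 libraries, among 161 rows with a range of at least 4-fold and 20 counts. With 6 points, which share their libraries, these values are a description only. *Gm11868* was most like *Trim43b* (r = 0.9954), a gene of chromosome 9 with 2, 0 and 2 counts in E861A and 85, 97 and 82 counts in wild type, followed by *Klk1b22* (r = 0.9398) and *8430408G22Rik* (r = 0.8737). *Gm13456* was most like *Gm11868* (r = 0.9784), followed by *Trim43b* (r = 0.9678) and *Klk1b22* (r = 0.8989). With a range of 2.77-fold, *Gm13456* was itself outside the 161 rows and so could not be listed for *Gm11868*. *Gm1821* and ENSMUSG00000048149 were each the row most like the other (r = 0.9936), and the pseudogene *Gm12312* (1, 3 and 2 against 30, 2 and 38 counts) came next for both (r = 0.9829 and 0.9812), ahead of *Steap4* (r = 0.9390 and 0.9163). *Rps3a3* was most like the histone gene *Hist1h2al* (r = 0.9979), with 78 counts in wild-type replicate 1 and at most 2 elsewhere, the pseudogene *Gm3608* (r = 0.9978) and *Themis* (r = 0.9772). *Gm9855* was most like *Gm15494* (r = 0.9968), *Igsf23* (r = 0.9868) and the pseudogene *Gm15442* (r = 0.9702).

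Few other pseudogene rows were expressed enough to test. Of 5204 other pseudogene rows, 119 were tested and 3 were called (2.52%, against 0.506% of all genes), 2 of them higher and 1 lower in E861A. DESeq2 called 2 of the 119 and the replicate block 4, and 22 had an unadjusted p-value under 0.05 by edgeR. *Gm5859* (106, 98 and 80 counts in E861A; 58, 40 and 51 in wild type) and *Gm10600* (ENSMUSG00000083929, Gm13301 in the annotation; 411, 375 and 335 counts in E861A; 237, 206 and 200 in wild type) rose by 1.19 ± 0.18 and 1.07 ± 0.12 on the log2 scale (SE; adjusted p = 0.00354 and 0.000218), and they are neighbours on chromosome 4, at 42107582 to 42109905 and 42087631 to 42104185. *Gm10557* (147, 181 and 141 counts in E861A; 259, 270 and 254 in wild type) fell by 0.48 ± 0.10 (SE; adjusted p = 0.0461). The median log2 fold change of the 119 was 0.147, beside -0.001 for all genes tested. In the families of the parents, 0 of 33 tested small-subunit ribosomal protein genes and 0 of 5 tested DNA glycosylase genes of base excision repair were called by edgeR or DESeq2, with 0 and 1 at an unadjusted p-value under 0.05. These lists include the parents *Rps3a1* and *Tdg*. Of 13 tested genes whose symbol ends in -ps, 0 were called by either tool and 1 had an unadjusted p-value under 0.05.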

How the data were processed

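Ribosome-depleted RNA of whole brain was sequenced as 75-base read pairs in 6 libraries. The submitters' processing notes name Trimmomatic 0.36, STAR 2.5.2a, edgeR and mm9. The authors deposited raw counts per gene from STAR's gene counting, 1 column per library. The annotation release and the strand column are not given in the sources used here. The authors also deposited CPM values for 13891 retained genes, which matched the counts to within 0.001 and include 2 of the 6 loci. Their own fold changes and false discovery rates were not used.

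Counts were analysed with edgeR 4.0.16 (R 4.3.3): TMM scaling, quasi-likelihood test, Benjamini-Hochberg adjustment over the genes that reached 2 CPM in all 3 replicates of one genotype or the other, a filter that 2 of the 6 loci passed (*Gm11868* and *Gm13456*). The test was run on simulated counts with the same spread setting for each gene and no reads shared between copy and parent. That check therefore does not cover unequal spread or shared reads in these data. Each SE of an edgeR fold change was back-calculated, as the absolute log2 fold change divided by the square root of the test's F statistic. Parents were found with blastn 2.17.0 by bit score. Genes are named as loci, parents, overlapping genes, the 3 rows most like each locus, called neighbours and called list genes; other names were added after their values were seen. One item is not reported here. The loci and lists were chosen with earlier results of these data known. Replicate numbers, shared between genotypes in the titles, were not used in the main fit, which held genotype alone. They were used as a block in an alternative fit. Deviations from genotype means correlated at 0.221, 0.329 and 0.112 between same-numbered libraries. Correlations between differently numbered libraries are not given, so these values do not show a pairing. What a number marks is not given in the sources used here. The alternatives were RLE scaling, DESeq2 1.42.0, other filters, the replicate block, other windows and pseudocounts, and omission of each library.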

Additional observations from a re-analysis of the deposited data

How the results depend on the processing

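The log2 ratio of each locus stayed negative under each alternative run. This follows largely from the selection of the loci on these same libraries, so nothing is read from it. For *Rps3a3* the ratio was only -0.16 without wild-type replicate 1, and the remaining libraries overlapped between the genotypes. The call of *Cyb5r4*, which was not used in the selection, was kept, with log2 fold changes from 0.638 to 0.689 over the omissions. The median log2 ratio of the 6 loci was -3.75, and -1.32 on the log2(CPM + 1) scale, where the pseudocount shrinks low values; over the omissions it ran from -3.92 to -2.74. Genes called numbered 69, and 110 with filterByExpr, 376 without a filter, 158 with the replicate block and 42 to 113 over the omissions, lowest without E861A replicate 3 and highest without E861A replicate 2. The cause was not tested. Related-list calls with the block numbered 4. Parents called numbered 1, and 2 without a filter (*Rps3a1* added) and 1 to 2 over the omissions. Neighbouring genes called numbered 0 around the loci in each fit and 1 around the parents. Called genes of the related lists numbered 3, 17 without a filter and 2 to 3 over the omissions. Rows with a 4-fold range numbered 54, and 161 at 20 counts (5 of the 6 loci), 25 at 8-fold (4 of the 6 loci) and 42 to 51 over the omissions. The replicate block changed no call of a parent (*Cyb5r4* adjusted p = 9.44e-06). Loci with under 10 counts in a library are limited by depth.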

Other observations

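Beyond the 6 loci, 11 other pseudogene rows had at least 20 counts in their highest library and a range of at least 4-fold, 6 of them highest in a wild-type library and 5 in an E861A library. These rows were examined after the values of the 6 loci had been seen, and no test was made. A coding match was found for 9 of them. The matched gene was lowest in the library highest for the row in 2 of the 9, and in another library in 7. This count takes the single highest and lowest library, whereas the 6 loci were judged by all libraries in which each was high. *Gm12312*, described below, is among the 7, since it was highest in wild-type replicate 3 and its match lowest in wild-type replicate 1. Values are given for the 3 that were also among the rows most like one of the 6 loci. These 3 were thus picked for a library pattern shared with a locus and do not stand for the 9. Each of the other matched rows had its matched gene lowest in a library other than the row's highest. *Gm3608* had 45 counts in wild-type replicate 1 and 5 to 8 elsewhere. It matched *Capza1*, which encodes an actin capping subunit, at 99.66% of 874 positions, and *Capza1* had 25.3 CPM in that library and 30.3 to 32.8 CPM in the other libraries. *Gm12312* had 30 and 38 counts in wild-type replicates 1 and 3 and 1 to 3 elsewhere. It matched *Fgfr1op2* at 96.58% of 644 positions, and *Fgfr1op2* had 79.6 and 83.5 CPM in those libraries, the lowest values of the 6, against 86.9 to 93.1 CPM elsewhere. *Gm15442* had 47 and 31 counts in wild-type replicates 2 and 3 and 2 to 8 elsewhere. It matched the zinc finger gene *Zfp114* at 84.96% of 1762 positions, and *Zfp114* had 1.26 and 1.40 CPM in those libraries, against 1.68 to 2.11 CPM elsewhere. An unnamed row, ENSMUSG00000083696 (chromosome 3, 37380414 to 37380515), had 106 counts in wild-type replicate 2 and 2 to 8 elsewhere, and no coding transcript matched it.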
